A study of Mus musculus with 16 samples.

Results

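Lipolysis, the release of fatty acids and glycerol from stored triglyceride, was followed through 8 genes in an immortalized line of mouse preadipocytes, which are fat cell precursors. The 8 genes were taken by their symbols from the 41325 genes of the deposited tables: the lipases Pnpla2 and Lipe, the lipase cofactor Abhd5, the lipase inhibitor G0s2, the beta-adrenergic receptors Adrb1 and Adrb3, the phosphodiesterase Pde3b and the glycerol channel Aqp7. All cells were wild type, of the strain C57Bl6/J. They were given the cytokine interleukin-13 (Il13 in the labels, IL-13 here) as a 16 h pre-treatment or no agent, and were collected at day 0 or day 6 of differentiation into adipocytes. The 16 mRNA libraries formed 4 groups of 4: untreated day 0, IL-13 day 0, untreated day 6 and IL-13 day 6. An immortalized line in culture lacks the nerves, vessels and immune cells of adipose tissue. Whether the 4 libraries within a group are independent cultures is not stated. The p-values therefore weigh differences only against library-to-library spread, which may be technical.

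In adipocytes, noradrenaline acts on beta-adrenergic receptors, which raise cyclic AMP through the stimulatory G protein and adenylyl cyclase, and cyclic AMP activates protein kinase A. Protein kinase A phosphorylates the lipid droplet coat protein perilipin 1, which then releases Abhd5 (also called CGI-58) to activate Pnpla2 (adipose triglyceride lipase), and it activates Lipe (hormone-sensitive lipase). Pnpla2 removes the first fatty acid of a triglyceride, Lipe acts on the resulting diglyceride, and Mgll splits the last fatty acid from glycerol. G0s2 binds and inhibits Pnpla2, Pde3b breaks down cyclic AMP and carries the antilipolytic action of insulin, and Aqp7 lets glycerol leave the cell.

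The sequences just upstream of a start site of Pnpla2, Lipe and Abhd5 are shown because these 3 genes rose together with IL-13 at day 0. Each is the 250 bases before a RefSeq start site (GRCm38.p6), read 5′ to 3′ on the gene's strand. Capitals mark the motifs found among those searched on both strands, which in these 3 windows were TGACG (the core of the cyclic AMP response element) and AGGTCA (the core that nuclear receptors such as PPARs bind), the latter read as TGACCT on the other strand. GC content was 63.2% for Pnpla2, 58.8% for Lipe and 64.8% for Abhd5, against a median of 52.4% over all promoters in the table.
Pnpla2, chr7:141454938-141455187, plus strand: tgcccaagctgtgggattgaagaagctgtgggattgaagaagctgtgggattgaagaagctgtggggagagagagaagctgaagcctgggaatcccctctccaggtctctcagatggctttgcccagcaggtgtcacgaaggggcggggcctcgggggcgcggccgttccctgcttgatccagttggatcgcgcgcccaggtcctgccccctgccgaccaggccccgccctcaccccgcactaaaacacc
Lipe, chr7:25390113-25390362, minus strand, the downstream of its RefSeq starts: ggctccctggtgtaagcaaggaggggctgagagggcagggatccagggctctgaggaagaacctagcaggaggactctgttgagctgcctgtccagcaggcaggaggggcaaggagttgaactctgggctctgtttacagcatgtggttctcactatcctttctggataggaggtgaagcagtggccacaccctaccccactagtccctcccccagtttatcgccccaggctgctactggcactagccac
Abhd5, chr9:122351366-122351615, plus strand: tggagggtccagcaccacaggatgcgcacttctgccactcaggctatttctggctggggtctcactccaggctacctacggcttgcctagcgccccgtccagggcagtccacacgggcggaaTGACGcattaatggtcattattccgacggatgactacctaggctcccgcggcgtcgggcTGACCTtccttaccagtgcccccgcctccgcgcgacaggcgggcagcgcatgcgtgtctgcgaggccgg
The upstream of the 2 Lipe windows (chr7:25395988-25396237) is not printed because it lies wholly within a Lipe exon; it holds CACGTG at -155 to -150. The printed Pnpla2 and Lipe windows held none of the motifs, and the Abhd5 window held TGACG at positions -128 to -124 and TGACCT at -69 to -64 from the start site. In the GENCODE annotation the Pnpla2 window lay outside any exon, while 11 bases of the Lipe window and 8 of the Abhd5 window lay in the gene's own exons. All 250 bases of the printed Lipe window lay within the span of the Lipe gene. The table held 8 promoters for 6 of the 8 genes (300 bases each, 250 before and 50 after the start); Adrb3 and Pde3b had none. Over these 8 promoters, TTC and GAA spaced by 4 bases, the spacing that the IL-13 effector Stat6 prefers, was found in 0, against 6.95% of the 32851 promoters in the table. TTC and GAA spaced by 3 bases was found in 1 (the upstream start of Lipe, across the start site itself), against 8.30%. AGGTCA was found in 3 of 8 against 16.3%, but 2 of the 3 are overlapping Aqp7 windows that share a site. AGGTCA repeated with 1 base between was found in 0 against 0.0396%, TGACG in 3 against 20.8%, TGACGTCA in 0 against 1.79% and CACGTG in 1, the upstream start of Lipe, against 7.15%. TGACGTCA contains TGACG, and the repeat contains AGGTCA, so these counts are not separate. Absence of a motif says only that those letters do not stand in these windows.

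Each library held 15253031 to 18112087 counts, over 15447 to 16201 genes. Levels are given as CPM (counts scaled to a common library size) unless TPM is named, which also divides by a gene's exon length. For CPM, library sizes were adjusted over all 16 libraries by the trimmed mean of M values (TMM). The labelled cell type was checked against its markers. At day 0, 14 mature adipocyte markers summed to 528 to 568 CPM in untreated and 491 to 514 CPM in IL-13 libraries. These ranges did not overlap. At day 6 the sum was 27785 to 31650.4 CPM. Of the 14, 8 averaged under 1 CPM in each group of day 0 and 1 in each group of day 6. The sum of 10 preadipocyte markers went from between 1278 and 1419.7 CPM at day 0 to between 408 and 515 CPM at day 6. Not all preadipocyte markers fell: in untreated cells, 6 of 9 tested were called lower and 1 higher, beside 39.0% and 41.5% of all genes. Pdgfra went from 359 to 347 CPM there and Zfp423 from 5.33 to 24.3 CPM. After IL-13, 8 of 9 were called lower and 1 higher, beside 40.3% and 40.6%. Macrophage markers (8 genes) summed to 4.77 to 6.15 CPM in untreated and 6.53 to 8.61 CPM in IL-13 libraries of day 0, without overlap, and to 1.42 to 3.35 CPM at day 6. Among them, Csf1r was called 2.75-fold higher and Lyz2 lower (0.620-fold) with IL-13 at day 0, and the part of these markers in the day 0 results was not tested. Endothelial markers (6) summed to 3.43 to 4.07 CPM at day 0 and 0.754 to 1.25 CPM at day 6. Skeletal muscle markers (6) summed to 5.69 to 11.6 CPM at day 0 and 15.1 to 24.7 CPM at day 6. For both lists the days did not overlap. Of the macrophage, endothelial and muscle markers, 2 to 5, 0 to 2 and 3 to 4 had no count in a group. Libraries also differed in an index of nuclear-retained and splicing RNAs, the mean log2 CPM of 22 such RNAs, a list known from earlier results of these data to move with IL-13. At day 0 the index was 6.31 ± 0.240 (SD, n = 4) in untreated and 5.82 ± 0.0601 in IL-13 libraries, and at day 6 it was 6.70 ± 0.206 and 6.05 ± 0.216. The groups did not overlap on either day, which is given as a description since the list was known to move, so this index moved with every IL-13 result given here, and 20 of the 22 RNAs at day 0 and 15 at day 6 were called lower with IL-13. Of the mature adipocyte markers tested, 1 of 6 was called higher with IL-13 and 2 lower at day 0 and 2 of 13 higher and 0 lower at day 6; of the preadipocyte markers, 4 of 9 higher and 1 lower at day 0 and 0 of 8 at day 6. Over all genes tested, 23.7% were called higher and 24.2% lower at day 0, and 2.21% and 4.34% at day 6. In bulk RNA, a different share of cells of a type and a different amount of RNA per cell cannot be told apart.

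At day 0, IL-13 pre-treated preadipocytes had more RNA of both lipases and, with TMM scaling, of the Pnpla2 cofactor Abhd5. The inhibitor, the phosphodiesterase and the glycerol channel did not pass the test. Pnpla2 was 1.95-fold higher, Lipe 1.62-fold and Abhd5 1.19-fold. Of the 8 genes, 6 passed the filter on low counts, 3 were called higher and 0 lower at an adjusted p under 0.05 (edgeR's quasi-likelihood test, Benjamini-Hochberg adjustment over all genes tested). Over all 12274 genes tested, 23.7% were called higher and 24.2% lower, so a call in itself is common at day 0 (5881 genes). Scaling by total counts moved the median of all genes by -0.12 on the log2 scale at day 0 and changed the split of calls from 2912 higher and 2969 lower to 1682 higher and 4523 lower.

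Pnpla2 (chr7:141455198-141460743) measured 17.5, 18.0, 23.8 and 19.3 CPM in the untreated and 37.4, 37.8, 44.7 and 34.6 CPM in the IL-13 libraries of day 0. Every IL-13 library lay above every untreated one, and library 3 was the highest in both groups. The log2 fold change was 0.96 (SE 0.097, 95% interval 0.75 to 1.17, edgeR adjusted p = 3.06e-06). Lipe (chr7:25379527-25398710) measured 6.51, 5.36, 8.29 and 6.53 CPM without and 10.8, 11.1, 10.9 and 11.1 CPM with IL-13. Its IL-13 libraries were nearly equal and all above the untreated ones, which varied more among themselves. The log2 fold change was 0.70 (SE 0.11, 0.45 to 0.94, edgeR adjusted p = 2.03e-04). Both lipases were thus detected in every library before differentiation, with 292 counts or more for Pnpla2 and 87 or more for Lipe.

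Abhd5 (chr9:122351608-122381524), whose product activates Pnpla2, measured 37.2, 39.8, 37.2 and 34.7 CPM in untreated and 44.8, 46.0, 43.6 and 44.0 CPM in IL-13 libraries. The groups did not overlap, but the step was small, at 0.25 on the log2 scale (SE 0.057, 0.13 to 0.37, edgeR adjusted p = 0.00249). On the deposited TPM scale, which has no TMM step, Abhd5 stood at 23.05 ± 1.16 and 23.84 ± 1.135 TPM (SD, n = 4) and the groups overlapped, and with total-count scaling its log2 fold change was 0.13 with an edgeR adjusted p of 0.0822. G0s2 (chr1:193272161-193273217), the inhibitor of Pnpla2, measured 3.33, 3.33, 3.97 and 5.19 CPM without and 4.25, 4.50, 5.82 and 4.15 CPM with IL-13. These groups overlapped, and its log2 fold change of 0.23 (SE 0.17, -0.13 to 0.58, edgeR adjusted p = 0.280) did not pass.

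Both receptors were at the limit of detection at day 0 and were not tested there. Adrb1 (chr19:56722372-56724862 in the deposited tables), the beta-1 receptor, had raw counts of 2, 2, 1 and 0 in untreated and 2, 1, 1 and 1 in IL-13 libraries. Adrb3 (chr8:27225776-27250616), the beta-3 receptor that marks rodent adipocytes, had 2, 0, 0 and 0 and then 0, 0, 0 and 1. In CPM of a group's summed counts, Adrb1 was 0.0748 (95% exact Poisson interval 0.0243 to 0.175) and 0.0752 (0.0244 to 0.176), and Adrb3 was 0.0299 (0.00362 to 0.108) and 0.0150 (0.000381 to 0.0838). These intervals cover counting error only, since reads copied in amplification are not independent molecules, and a difference between the groups was not detectable at this depth.

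Pde3b (chr7:114415281-114539251) measured 2.66, 2.90, 2.36 and 1.77 CPM in untreated and 1.98, 2.85, 2.97 and 1.98 CPM in IL-13 libraries of day 0. The ranges overlapped, and the log2 fold change was 0.0036 with an interval from -0.42 to 0.43 (edgeR adjusted p = 0.989). Aqp7 (chr4:41033074-41048139) measured 1.23, 1.72, 0.691 and 1.34 CPM without and 0.779, 0.950, 0.772 and 1.34 CPM with IL-13. Its groups overlapped and the log2 fold change was -0.39 (SE 0.29, -1.01 to 0.23, edgeR adjusted p = 0.287). Both genes had between 12 and 52 counts in a day 0 library, which limits what could be detected.

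**Figure D1:**
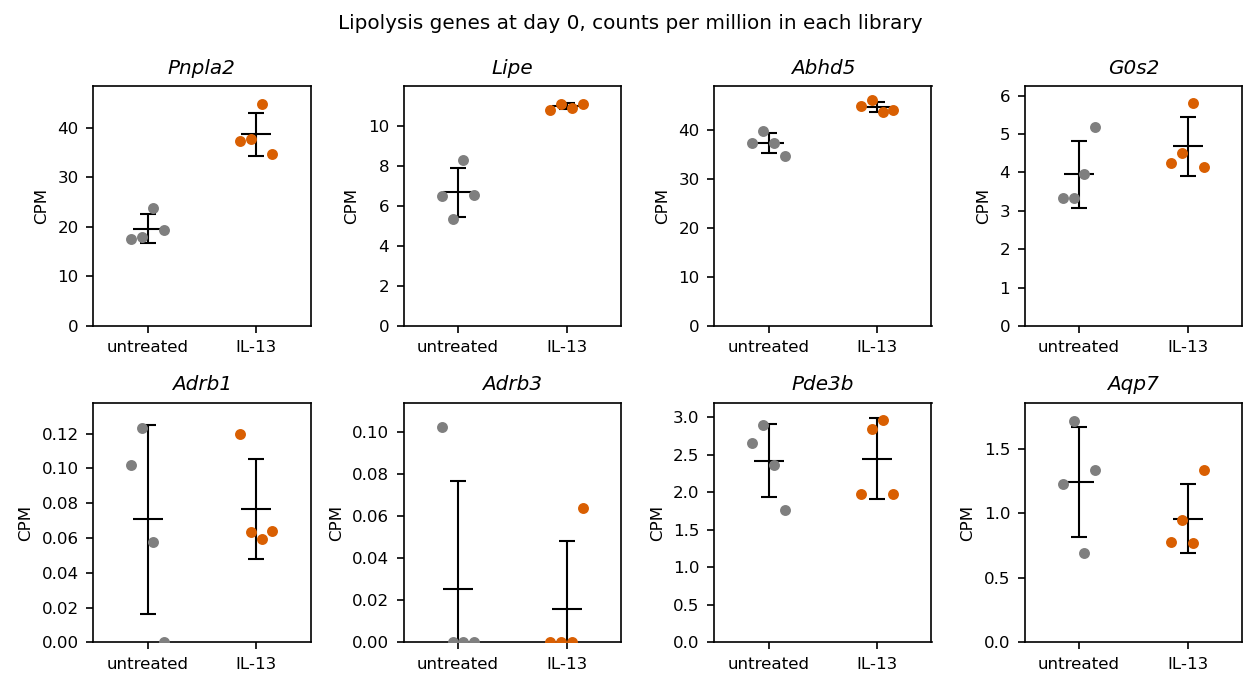
CPM of the 8 genes in each day 0 library (points; 4 untreated in grey, 4 IL-13 in orange), with group mean (long line) and SD (bars); each panel has its own axis from 0. Pnpla2, Lipe and Abhd5 show no overlap between the groups, G0s2, Pde3b and Aqp7 do, and the 2 receptors rest on at most 2 counts per library.

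The nuclear RNA index was lower in every IL-13 library, and the rise of Pnpla2 held in all 16 alternative analyses of the day 0 comparison (log2 fold change 0.60 to 1.07, edgeR or DESeq2 adjusted p at most 0.00971). With this index added to the model it was 0.60 (edgeR adjusted p = 0.00971), while Lipe at 0.43 (adjusted p = 0.264) and Abhd5 at 0.24 (adjusted p = 0.222) no longer passed, and the number of genes called fell from 5881 to 938. The log2 fold change of Abhd5 was 0.25 without the index, so its size hardly moved. The index separated the groups without overlap, so this fit cannot fully tell the index from IL-13. No conclusion is drawn from the lost calls. Without the untreated libraries 1 and 4, highest in the index, the log2 fold changes were 0.88, 0.67 and 0.21 and all 3 genes stayed called (edgeR adjusted p = 3.32e-04, 0.00477 and 0.0370). Across the 16 libraries, after each group's mean was subtracted, the correlation of the index with log2 CPM was -0.671 for Pnpla2, -0.618 for Lipe, -0.0298 for Abhd5 and 0.418 for Aqp7, a description over libraries that share depth and handling.

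The other genes of the pathway, listed with earlier results of these data in view, had calls in both directions at day 0, as had all genes (23.7% higher and 24.2% lower). Among the droplet coat and other lipases, 7 of 15 tested were called higher and 2 lower, with a median log2 fold change of 0.12 against -0.0111 over all genes tested. The monoglyceride lipase Mgll had the largest fold of that list, from 0.729 to 6.69 CPM (9.05-fold, log2 3.18, SE 0.17, edgeR adjusted p = 1.38e-09). Caveolin Cav1 (1.61-fold), the droplet coat genes Plin3 (1.31-fold), Plin2 (1.20-fold) and Plin4 (1.10-fold) and the lipid hydrolases Abhd12 (1.26-fold) and Abhd6 (1.23-fold) also rose. The lysosomal acid lipase Lipa (0.878-fold) and Ddhd2 (0.751-fold) fell. Plin1, the coat protein that holds Abhd5 in resting adipocytes, had 8 counts over the untreated and 28 over the IL-13 libraries and was not tested.

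Upstream of the lipases, 7 of 26 tested genes of the G protein, cyclase and protein kinase A list were called higher and 8 lower (median 0.021), shares near those of all genes tested (23.7% and 24.2%). Gnas, the stimulatory G protein subunit, rose 1.25-fold, as did the inhibitory Gnai2 (1.33-fold), the receptor kinase Grk2 (1.25-fold) and the regulatory subunit Prkar1a (1.40-fold). The regulatory subunit Prkar2b, prominent in adipose tissue, fell (0.708-fold), as did the scaffold Akap12 (0.704-fold) and the cyclase Adcy6 (0.788-fold). The called cyclases went both ways, since Adcy4 also fell (0.639-fold) but Adcy1 rose (1.72-fold). Of the other phosphodiesterases, 3 of 10 were called higher and 5 lower (median -0.25). Pde2a rose 1.86-fold, Pde7a 1.55-fold and Pde8a 1.29-fold, whereas Pde1b (0.585-fold), Pde4a (0.701-fold), Pde3a (0.708-fold), Pde8b (0.718-fold) and Pde4d (0.740-fold) fell. Pde3a, the sister gene of Pde3b, was thus called lower where Pde3b was not called.

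Receptors and insulin signalling genes that act on lipolysis counted 2 of 13 higher and 6 lower (median -0.24), again beside 23.7% and 24.2% over all genes. The lactate receptor Hcar1 (1.31-fold), an antilipolytic receptor, and the kinase gene Akt2 (1.25-fold) rose, and Irs1 (0.604-fold), Prkg1 (0.680-fold), Npr2 (0.844-fold) and Npr3 (0.795-fold) were among those that fell. In glycerol metabolism, 2 of 6 rose and 1 fell (median 0.21): the glycerol phosphate dehydrogenases Gpd1 (2.17-fold) and Gpd2 (1.25-fold) against the glycerol kinase gene Gk5 (0.676-fold). Of the transcription factors that act on lipase genes, 2 of 11 rose and 5 fell (median -0.021). Pparg, which binds the Pnpla2 promoter in adipocytes, rose from 62.8 to 93.6 CPM (1.47-fold, edgeR adjusted p = 9.66e-07) and Cebpb rose 1.57-fold, while Cebpa (0.705-fold) and Sp1 (0.841-fold) fell. Stat6 itself did not pass, at 0.038 on the log2 scale (SE 0.048, edgeR adjusted p = 0.541).

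At day 6, none of the 8 genes passed the test between IL-13 and untreated cells, with all 8 tested. The lipases, cofactor and inhibitor lay within 1.13-fold of the untreated mean by the fitted folds. The nearest to a call were Adrb1, at 1.48-fold, and Aqp7, at 0.899-fold. Over all 12352 genes tested, 2.21% were called higher and 4.34% lower (809 genes, with 3325 at an unadjusted p under 0.05); DESeq2 called 1470 genes and also 0 of the 8. With total-count scaling the split of 273 higher and 536 lower calls became 53 and 1032.

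Pnpla2 measured 974, 845, 992 and 1031 CPM in the untreated and 919, 991, 1193 and 1099 CPM in the IL-13 libraries of day 6. The groups overlapped, at 0.14 on the log2 scale (SE 0.090, -0.054 to 0.34, edgeR adjusted p = 0.328). Lipe measured 1138, 1061, 1194 and 1220.2 CPM without and 1081, 1258, 1455 and 1352 CPM with IL-13. Its IL-13 libraries 2, 3 and 4 lay above all untreated ones, and IL-13 library 1 lay near the bottom (log2 fold change 0.17, SE 0.090, -0.024 to 0.37, edgeR adjusted p = 0.239). Abhd5 was 228 ± 7.17 CPM (SD, n = 4) without and 241 ± 9.12 CPM with IL-13 (log2 0.093, -0.020 to 0.21, edgeR adjusted p = 0.264). G0s2 was 627 ± 66.7 and 622 ± 87.1 CPM (log2 0.0028, -0.23 to 0.23, edgeR adjusted p = 0.989). The interval of Pnpla2 at day 6 thus ended below the 0.96 measured at day 0.

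The receptors could be tested at day 6. Adrb1 had 21, 28, 33 and 30 raw counts in untreated and 43, 49, 37 and 35 in IL-13 libraries, or 1.35, 1.66, 2.18 and 1.74 CPM and 2.66, 3.04, 2.47 and 2.04 CPM. The raw counts did not overlap, but the CPM did, by the lowest IL-13 and the highest untreated library. The log2 fold change was 0.57 (SE 0.20, 0.14 to 1.00), with a p of 0.0143 before and 0.0963 after edgeR's adjustment, and it passed in none of the 16 alternatives (log2 0.11 to 0.70). Adrb3 measured 18.5, 14.1, 15.8 and 19.6 CPM without and 11.9, 13.0, 17.5 and 18.4 CPM with IL-13. Its groups overlapped (log2 -0.15, SE 0.15, -0.48 to 0.19, edgeR adjusted p = 0.561). Of the exon bases of Adrb3, 24.9% are shared with an antisense gene, Gm45470, which had 251 and 171 counts in these groups beside 1102 and 980 of Adrb3. Whether counting used the strand is not given in the sources used here, so reads of the pair may not have been told apart.

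Pde3b measured 361, 368, 331 and 335 CPM without and 371, 331, 321 and 350.3 CPM with IL-13, which is the same range (log2 -0.0092, SE 0.060, -0.14 to 0.12, edgeR adjusted p = 0.937). Aqp7 measured 68.2, 68.1, 65.4 and 64.2 CPM in untreated and 65.4, 56.8, 57.5 and 57.4 CPM in IL-13 libraries. In CPM, library 1 of the IL-13 group stood among the untreated libraries and the other 3 lay below all of them. On the deposited TPM scale, Aqp7 was 71.01 to 79.01 TPM without and 55.91 to 70.06 TPM with IL-13. Those groups did not overlap. The log2 fold change was -0.15 (SE 0.061, -0.29 to -0.022), with a p of 0.0261 before and 0.131 after edgeR's adjustment. Leaving out IL-13 library 1 gave calls for Aqp7 (-0.22, edgeR adjusted p = 0.0253) and for Lipe (0.23, adjusted p = 0.0411), and total-count scaling gave one for Aqp7 (-0.24, adjusted p = 0.0478). The number of genes called at day 6 also hung on single libraries: 2328 without IL-13 library 1, 60 without untreated library 2, 62 without IL-13 library 2, 102 without untreated library 1, 205 without IL-13 library 3, 320 without IL-13 library 4 and 523 without untreated library 3.

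**Figure D2:**
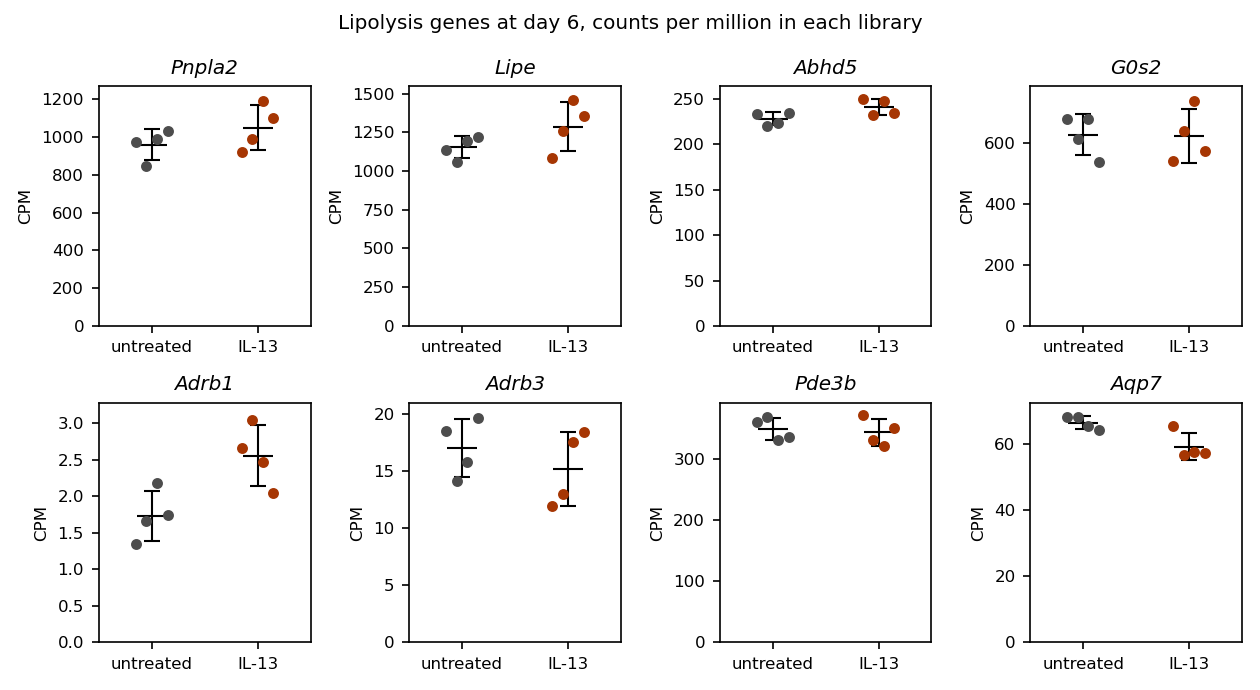
CPM of the 8 genes in each day 6 library (points; 4 untreated in dark grey, 4 IL-13 in red-brown), with group mean (long line) and SD (bars); each panel has its own axis from 0. All 8 pairs of groups overlap in CPM, and in the Aqp7 panel 1 IL-13 library at 65.4 CPM stands apart from the other 3 at 56.8 to 57.5 CPM.

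Of the wider pathway, 4 genes were called higher and 4 lower at day 6, where 2.21% of all genes were called higher and 4.34% lower. None of these 8 calls held with the nuclear RNA index in the model, which left 0 genes called in the whole table. The index separated the groups at day 6 too, so that fit cannot fully tell the index from IL-13. Of 21 droplet genes tested, Plin2 (1.18-fold), Abhd6 (1.21-fold), Abhd12 (1.22-fold) and Fabp5 (1.19-fold) were called higher, and Pnpla3 (0.757-fold) and Ddhd2 (0.776-fold) lower, with a list median of 0.11 against 0.00882 over all genes. Plin2, Abhd6 and Abhd12 had been called higher and Ddhd2 lower at day 0 as well. Adcy6 was called lower (0.792-fold) among 25 G protein, cyclase and kinase genes, whose median was 0.015, and Pde7b (0.768-fold) among 11 other phosphodiesterases, whose median was -0.090. None of 21 other receptors, 7 glycerol genes and 15 transcription factors passed the test (medians -0.020, -0.13 and -0.034). Mgll, 9.05-fold higher at day 0, was at 549 ± 29.8 CPM without and 609 ± 41.1 CPM with IL-13 at day 6 (adjusted p = 0.141).

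The IL-13 effect on the lipases differed between the days. In a fit of all 16 libraries, the effect at day 6 minus that at day 0 was -0.85 on the log2 scale for Pnpla2 (SE 0.14, -1.15 to -0.55, edgeR adjusted p = 4.93e-04) and -0.55 for Lipe (SE 0.15, -0.86 to -0.25, edgeR adjusted p = 0.0220). Of the 8 genes, 0 were called higher and 2 lower in this comparison, against 3.12% and 4.95% of 13157 genes tested. Pnpla2 kept its call in all 23 alternatives (-0.95 to -0.72, adjusted p at most 0.0167). Lipe kept its call in 9 of 23 and lost it in 14, with adjusted p up to 0.172. Among the 16 analyses that left out 1 library, Lipe stayed called only without untreated day 0 library 3, untreated day 6 library 2 or IL-13 day 6 library 3, while its log2 difference stayed between -0.67 and -0.42.

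For the other 6 genes the difference between the days did not pass. Abhd5 was at -0.18 (SE 0.073, -0.33 to -0.028, edgeR adjusted p = 0.155), G0s2 at -0.25 (-0.70 to 0.19), Pde3b at -0.042 (-0.42 to 0.34) and Aqp7 at 0.21 (-0.31 to 0.73). For the receptors the intervals were wide, -1.30 to 2.16 for Adrb1 and -2.33 to 3.26 for Adrb3, because of their few counts at day 0. Of the wider pathway, the effect was called lower at day 6 for Mgll (-3.04), Plin1 (-1.71) and Cav1 (-0.51), for Pparg (-0.53) and for Prkar1a (-0.41), Pde7a (-0.74), Pde8a (-0.37), Gpd2 (-0.48) and Irf4 (-2.33). Irf4 had only 12 counts over the untreated and 42 over the IL-13 libraries of day 0, and Plin1 8 and 28. Neither was tested at day 0. The effect was called higher, after a fall at day 0, for Prkar2b (0.47), Akap12 (0.57), Pde1b (0.86), Pde3a (0.38), Lipa (0.31) and Cebpa (0.70). The split of all calls in this comparison, 410 higher and 651 lower, became 516 and 498 with total-count scaling, 509 and 505 with DESeq2's size factors in edgeR, 522 and 446 without the filter and 607 and 588 in DESeq2.

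**Figure D3:**
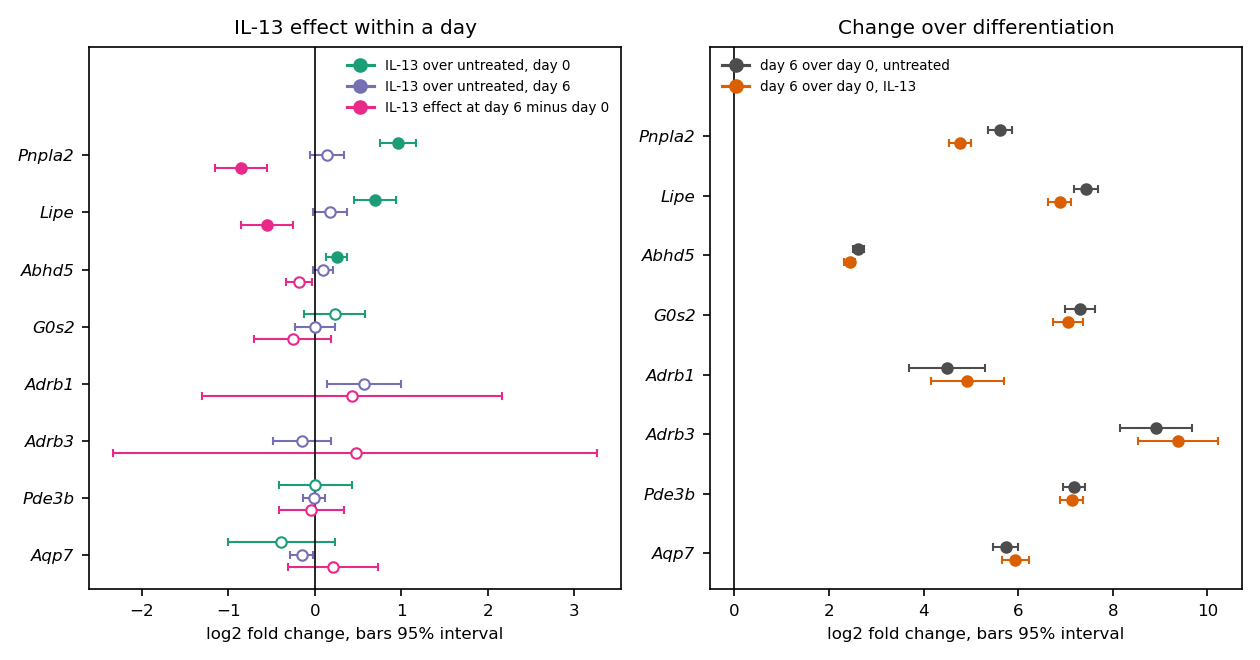
Log2 fold changes of the 8 genes with 95% intervals (edgeR); the left panel has the IL-13 effect at day 0 and day 6 and the difference between them, the right panel day 6 over day 0 in untreated and IL-13 cells, and filled points passed the test. On the left, Pnpla2, Lipe and Abhd5 are filled at day 0 and none at day 6; on the right all 16 points are filled.

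Differentiation raised all 8 genes, in both treatments. In untreated cells, 8 of 8 were called higher from day 0 to day 6, where 41.5% of 13157 genes were called higher and 39.0% lower. After IL-13, 8 of 8 were also called higher, against 40.6% higher and 40.3% lower. The median log2 change over the 8 was 6.45 and 6.41, against 0.0382 and 0.00122 over all genes, and 6.93% and 7.62% of all genes rose at least as far as the least changed of the 8. No group of day 0 overlapped its day 6 counterpart for any of these genes. Each day's libraries were deposited in a table of their own, so day and table cannot be told apart.

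Lipe rose 172-fold in untreated cells (log2 7.43, SE 0.12, edgeR adjusted p = 8.03e-22) and 117-fold after IL-13 (log2 6.88, SE 0.11). Pnpla2 rose 48.9-fold (log2 5.61, SE 0.12, edgeR adjusted p = 1.63e-19) and 27.2-fold (log2 4.76, SE 0.11), starting from a higher level after IL-13. The inhibitor G0s2 rose 158-fold and 132-fold, far more than the cofactor Abhd5, which rose 6.13-fold and 5.41-fold. Pde3b rose 144-fold and 139.9-fold, and Aqp7 53.3-fold and 61.6-fold. Abhd5 had the smallest rise of the 8 in both treatments.

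Adrb1 rose from 5 to 112 counts over the untreated libraries (ratio 23.1, 95% interval for counting error 9.62 to 72.6) and from 5 to 164 after IL-13 (32.2, 13.5 to 100). Adrb3 rose from 2 to 1102 counts (ratio 569, 157 to 4.71e+03) and from 1 to 980 (961, 172 to 3.8e+04). Both day 0 counts of untreated Adrb3 came from library 1 and the IL-13 count from library 4. Without those libraries the day 0 group held no count, and the fitted log2 change of 8.91 became 11.11 and that of 9.38 became 11.01, values that rest on the prior count. The antisense gene Gm45470 rose with Adrb3, from 8 to 251 counts and from 0 to 171.

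The lists of the wider pathway stand beside 41.5% higher and 39.0% lower over all genes in untreated cells. In untreated cells, 18 of 21 droplet genes rose and 2 fell (median 2.34), 17 of 22 other receptors rose and 5 fell (2.55), 7 of 8 glycerol genes rose and 1 fell (3.21), and 12 of 15 transcription factors rose and 2 fell (1.98). With genes that lacked any count at day 0 set at 3 counts over the group, these medians were the same. Shares nearer those of all genes were seen in 2 lists: 10 of 27 G protein, cyclase and kinase genes rose and 15 fell (median -0.32), and 6 of 11 other phosphodiesterases rose and 5 fell (0.46). Prkar2b rose 5.80-fold and Prkaca, a catalytic subunit of protein kinase A, 1.43-fold, while Gnas (0.532-fold), Prkar1a (0.495-fold) and Pde2a (0.104-fold) fell. The scaffold Akap1 rose 2.96-fold and Akap12 fell (0.235-fold), and of the phosphodiesterases Pde7b (28.2-fold) and Pde1a (4.87-fold) rose while Pde1b (0.205-fold) and Pde4a (0.483-fold) fell. Hcar1 rose 21.9-fold, the glycerol kinase gene Gk 17.6-fold and Gpd2 8.07-fold, while the water channel gene Aqp1 fell (0.0147-fold). Gpd1 rose from 0.456 to 5323 CPM, and the fatty acid binding protein gene Fabp4 from 109 to 14817 CPM. The transcription factor genes Nr1h3 (25.7-fold), Pparg (4.37-fold), Foxo1 (3.95-fold) and Cebpa (3.47 on the log2 scale) rose. Mgll reached 549 CPM and Plin1 574 CPM from below 1 CPM. Among cyclases, Adcy5 rose from 4 counts over the group to 3128, and Adcy6 rose 1.88-fold, whereas Adcy1 (0.0244-fold), Adcy7 (0.0291-fold), Adcy4 (0.400-fold) and Adcy3 (0.706-fold) fell. After IL-13, where 40.6% of all genes were called higher and 40.3% lower, the counts of genes that rose and fell were 18 and 3 of 21, 17 and 5 of 22, 7 and 1 of 8, 12 and 1 of 15, 9 and 14 of 27, and 4 and 5 of 11 for these lists in the same order.

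Levels of different genes were compared per length, on the deposited TPM. Its length term matched all annotated exon bases of a gene: 871 for G0s2, 3020 for Pnpla2, 5886 for Lipe and 5956 for Abhd5. All exons together can exceed the length of a single mRNA, so the order rests on these lengths. In CPM, Lipe (1154) lay above Pnpla2 (960.4) and G0s2 (627) in untreated cells at day 6. In untreated cells at day 0 the order was Pnpla2 (23.93 ± 2.647 TPM, SD, n = 4), Abhd5 (23.05 ± 1.16), G0s2 (16.82 ± 4.291), Lipe (4.172 ± 0.6614), Aqp7 (1.635 ± 0.5716), Pde3b (0.9776 ± 0.1868), Adrb1 (0.1039) and Adrb3 (0.02902). Pnpla2, Abhd5 and G0s2 overlapped with their neighbours in that order, as did Aqp7 with Pde3b and Adrb1 with Adrb3, while the steps from G0s2 to Lipe, Lipe to Aqp7 and Pde3b to Adrb1 had no overlap. After IL-13 at day 0 the order was the same, but Pnpla2 at 40.60 ± 2.949 TPM did not overlap Abhd5 at 23.84 ± 1.135 TPM, and Aqp7 and Pde3b overlapped. Adrb1 and Adrb3, at single counts there, cannot be ordered. At day 6 in untreated cells, G0s2 came first at 2298 ± 269.3 TPM, then Pnpla2 at 1014 ± 76.73, Lipe at 625.0 ± 29.92, Abhd5 at 122.2 ± 4.598, Pde3b at 122.1 ± 8.966, Aqp7 at 75.06 ± 3.842, Adrb3 at 16.06 ± 2.343 and Adrb1 at 2.215 ± 0.3981 TPM. The only neighbours that overlapped there were Abhd5 and Pde3b. The IL-13 cells of day 6 gave the same order and the same overlap.

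**Figure D4:**
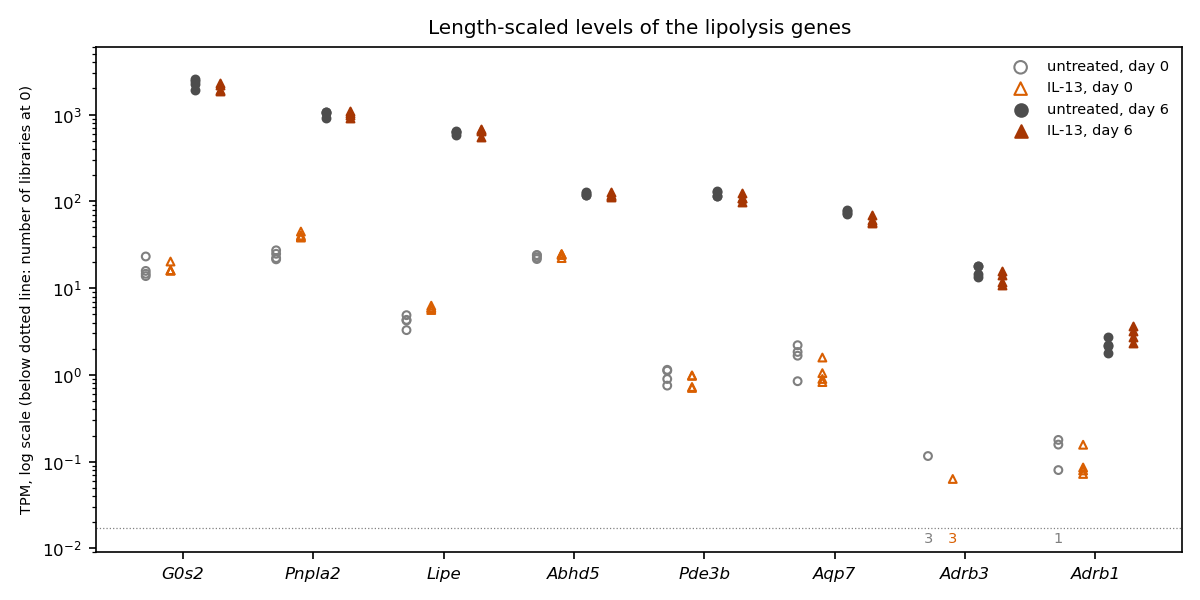
Deposited TPM of the 8 genes in all 16 libraries on a log axis, ordered by the mean at day 6 (open symbols day 0, filled day 6; circles untreated, triangles IL-13; digits under the dotted line count libraries at 0). Every gene is higher at day 6 than at day 0, and G0s2 moves from the third place at day 0 to the first at day 6.

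Ratios within a library do not depend on library scaling and are given as a description. Their size, and whether they lie above or below 1, rests on the exon lengths used for TPM. Pnpla2 over its inhibitor G0s2, in TPM, was 1.517, 1.560, 1.726 and 1.073 in untreated and 2.539, 2.425, 2.216 and 2.400 in IL-13 libraries of day 0, without overlap. At day 6 it was 0.4466 ± 0.0717 (SD, n = 4) without and 0.4894 ± 0.0460 with IL-13, below 1 in every library. On this length scale, the order of lipase and inhibitor RNA was thus the reverse of day 0 in all 8 libraries of day 6. Abhd5 over G0s2 was 1.433 ± 0.3431 and 1.420 ± 0.2168 at day 0 and 0.0538 ± 0.0070 and 0.0575 ± 0.0081 at day 6, and the IL-13 groups overlapped the untreated ones on both days. Pnpla2 over Lipe was 5.787 ± 0.5469 at day 0 and 1.621 ± 0.0506 at day 6 in untreated cells, and 6.883 ± 0.8128 and 1.594 ± 0.0502 after IL-13. Adrb3 over Adrb1 at day 6 was 10.08, 6.272, 5.344 and 8.313 in untreated and 3.312, 3.162, 5.205 and 6.662 in IL-13 libraries, with overlap.

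**Figure D5:**
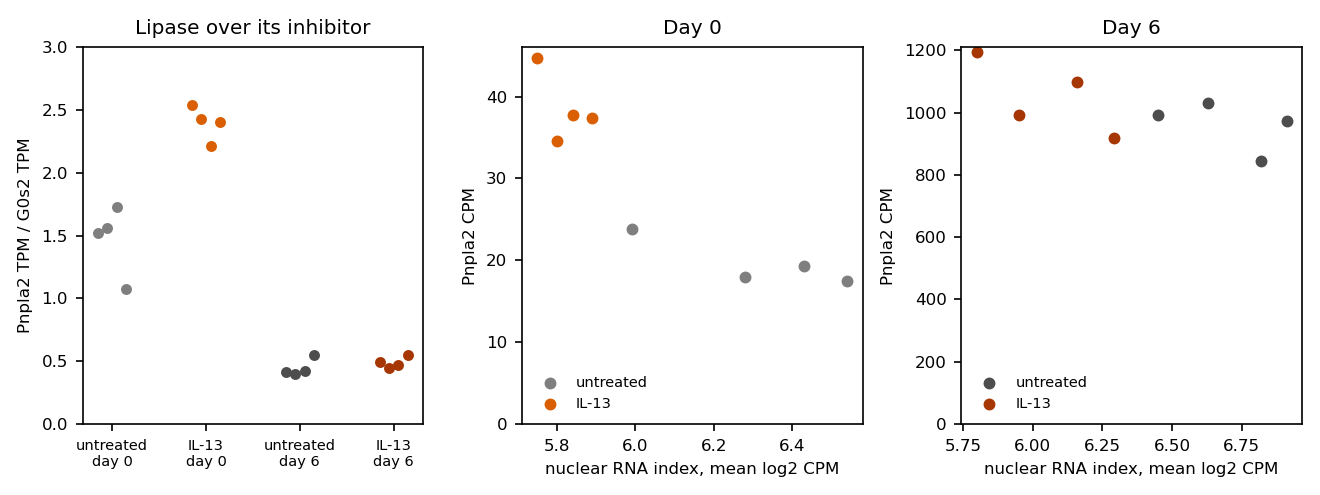
Left, Pnpla2 TPM over G0s2 TPM in each library (4 per group); middle and right, Pnpla2 CPM against the nuclear RNA index (mean log2 CPM of 22 RNAs) at day 0 and day 6, untreated in grey and IL-13 in orange or red-brown. At day 0 the IL-13 libraries are at once lower in the index and higher in Pnpla2; at day 6 the index separates the groups but Pnpla2 does not.

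Within a day, the lipases varied together from library to library. After each day's mean was subtracted, log2 CPM of Pnpla2 and Lipe correlated at r = 0.951 over the 16 libraries, Pnpla2 and Abhd5 at 0.813, and Lipe and Abhd5 at 0.734. Pnpla2 correlated with G0s2 at 0.552 and with Aqp7 at -0.609. These are descriptions: the libraries share depth and handling, and the day 0 IL-13 effect on the first 3 genes enters each r. By the same measure the genes named as like Pnpla2, among 9043 candidates, were Ttyh2 (r = 0.981) and Pcx (0.979), and those most like Lipe were Prr5 (0.971), Zfp703 (0.966) and Pofut2 (0.966). For Abhd5 they were Atpaf2 (0.946), Clic4 (0.944) and Atp6v0a2 (0.944), and for G0s2 Parp3 (0.885), Rnf123 (0.864) and Ung (0.842). The others were named for Adrb1 (Mesd 0.883, Rala 0.858, Cfdp1 0.855), Aqp7 (Trim23 0.828, Qsox2 0.814, Cyth1 0.812), Pde3b (Ankrd49 0.827, Adat2 0.803, Ap3s1 0.791) and Adrb3 (Tbc1d16 0.736, Mtg2 0.700, Usp20 0.691).

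Overlapping annotation touched 3 of the 8 genes. Antisense exons cover 15.6% of the exon bases of Lipe (4732471J01Rik) and 16% of those of Abhd5 (A730085K08Rik), beside the 24.9% of Adrb3. The antisense gene at Lipe had 16 and 13 counts at day 0 against 480 and 711 of Lipe, and that at Abhd5 had 10 counts in all 16 libraries. No exon of the 8 genes was shared with another gene on the same strand.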

How the data were processed

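RNA of immortalized C57Bl6/J mouse preadipocytes was purified on columns and 2 ug per library went into a stranded mRNA kit, per the labels' protocols. The authors deposited, per the file headers, raw read counts per gene for each library, and TPM values (counts scaled to exon length and library size), in a table for each day. The build was mm10, per the submitters' processing notes; for the aligner, counter, annotation and use of strand the entry is "not given in the sources used here". Deposited CPM and RPKM values and the authors' comparisons were not used.

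The counts were tested as deposited with edgeR 4.0.16 (quasi-likelihood, robust, TMM, default expression filter with a minimum count of 10 and minimum total of 15) in R 4.3.3. P-values were Benjamini-Hochberg adjusted over all genes of a comparison and called under 0.05. IL-13 was compared with no agent within each day over 8 libraries; contrasts between days, and that between the IL-13 effects, used all 16. SE was taken as log2 fold change over root F, and the fits were tested on simulated data. DESeq2 1.42.0 was an alternative. Log2 CPM used a prior count of 2. The index, ratios, TPM levels and likeness were not tested.

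The 8 genes and all gene lists were chosen with earlier results of these data known. The naming rule was all 8 genes, up to 4 called list genes of smallest p per comparison (all where at most 5 were called) and the 3 genes most like each of the 8 by day-centred correlation (mean log2 CPM at least 3); 1 of those for Pnpla2 is not reported here. List genes beyond the rule were named after their values were seen. Some list genes with 5 counts or fewer at day 0 were left unnamed between the days, and for IL-13 cells only list counts are given. Locations are from the deposited tables and GENCODE vM21 (GRCm38), which held 41297 of 41325 gene identifiers, 40469 with the same start and end; Adrb1 has a longer span there. Library pairs of 1 group differed by more than sampling noise (chi-square per degree of freedom 3.87 to 25.8), and all 16 were kept. Counting error weighs most on genes near or under 1 CPM.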

Additional observations from a re-analysis of the deposited data

Results flagged for a closer look

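The 4 values below stood apart. Adrb1 measured 0.120 CPM in IL-13 library 1 of day 0, where the other 3 libraries lay between 0.0594 and 0.0639 CPM; the gap to the nearest was 0.925 of the group's range, above Dixon's limit of 0.829 for 4 samples, and the difference is 2 counts against 1. Aqp7 measured 65.4 CPM in IL-13 library 1 of day 6, where the other 3 lay between 56.8 and 57.5 CPM (0.912 of the range). Chance alone gives such a gap in about 1 in 20 groups, and 32 groups of 4 libraries were checked. The IL-13 effect differed between day 6 and day 0 by -0.85 on the log2 scale for Pnpla2 and by -0.55 for Lipe, in the test of the difference itself.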

How the results depend on the processing

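The calls of Pnpla2 at day 0 and between the days, and all 8 calls in each comparison of day 6 with day 0, held in every alternative run; those of Lipe and Abhd5 at day 0 and of Lipe between the days did not, as given above. Against 5881 genes and 3 of the 8 called at day 0, the nuclear RNA index as a covariate gave 938 and 1, and leaving out the untreated libraries highest in it gave 3485. Against 809 genes at day 6, DESeq2 gave 1470, the covariate 0, leaving out those libraries 2, and a fit of all 16 libraries 1405; total-count scaling called 1 of the 8 lower. Against 1061 genes in the difference between the days, the covariate gave 2149, and leaving out those libraries gave 545 with 1 of the 8 called. Fewer libraries entered some of these fits, and the covariate cannot be fully told apart from IL-13. Otherwise the cause was not tested.

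Leaving out 1 library gave 4823 to 6593 genes at day 0, 60 to 2328 at day 6 (0 to 1 of the 8 higher and 0 to 1 lower), 10434 to 10786 and 10413 to 10751 between the days, and 836 to 1269 (1 to 2 of the 8 lower) for the difference. The labels do not say whether the replicate numbers pair the libraries, and the main fits used no block. Correlations of same-numbered deviations ran from -0.0827 to 0.215, and each number matched best with itself in 2 to 3 of 4 pairs. Whether libraries of the same number are partly paired was not tested. With the replicate number as a block, 6518 genes were called at day 0, 2812 at day 6 and 1608 in the difference, and no call of the 8 changed.

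Sign changes of log2 fold changes touched only values that passed in neither fit. Pde3b at day 0 became -0.12 with total-count scaling, -0.0056 with the block, -0.078 with the covariate, -0.10 without the libraries highest in the index, and -0.12 to 0.095 without 1 library. Aqp7 at day 0 became 0.22, and at day 6 Pnpla2 -0.15 and Lipe -0.17, with the covariate. G0s2 at day 6 became -0.0055 with DESeq2's size factors, -0.088 with total counts, -0.0012 in DESeq2, -0.0011 with the block, -0.31 with the covariate, -0.010 in the fit of all 16 libraries and -0.10 to 0.051 without 1 library. Pde3b at day 6 became 0.22 with the covariate, 0.043 without the libraries highest in the index and -0.061 to 0.015 without 1 library. In the difference between the days, Adrb3 became -1.78 without those libraries and -1.72 (without untreated day 0 library 1) to 2.12 without 1 library. Pde3b there became 0.018 with total counts, 0.014 without the filter, 0.0053 with the covariate, 0.17 without those libraries and -0.083 to 0.13 without 1 library. Depth limits the receptors at day 0, with 5 counts or fewer in a group.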
